A study of Vitis vinifera with 4 samples.

Results

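The binding events described here lie on chr10, chr12 and chr19 of the grapevine genome, a set of chromosomes that share ancestry in the ancient hexaploid from which the grapevine genome derives. They are 1 of several such sets, and the comparison chromosomes below include other related sets. All events whose chromosome field reads chr10, chr12 or chr19 were taken, without regard to their strength. They number 4142 of the 30318 events in the list (13.7%), with 1351 on chr10, 1445 on chr12 and 1346 on chr19. The other 16 numbered chromosomes hold 25694 events and serve as the comparison. All numbered chromosomes together hold 29836 events, and the rest of the list is on unplaced sequence. DNA affinity purification sequencing (DAP-seq) gave the events: naked genomic DNA was passed over a tagged protein, and the fragments that stayed bound were amplified and sequenced. The design held 2 libraries for MYBPA1 and 2 for pIX-HALO, the vector carrying the HALO affinity tag without a transcription factor. Proteins of both groups were made in rabbit reticulocyte lysate, and the DNA of all 4 libraries came from young leaves, of 1 clone of the cultivar Pinot Noir. The data are 1 list for MYBPA1 with no values per library, so replicate error cannot be given for any difference below, and the read depth behind an event is unknown.

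MYBPA1 is a MYB transcription factor of grapevine known to switch on genes for proanthocyanidins, the condensed tannins of grape skin and seed. MYB factors of this kind contact short DNA motifs through paired MYB repeats, and short motifs recur throughout a plant genome, near genes and far from them. Because DAP-seq uses DNA stripped of chromatin, an event marks a fragment that the protein can hold in the tube. In an ancient hexaploid, large chromosome blocks descend from a common ancestor and have since lost, gained and rearranged sequence separately. Genes and sequences under the events were not analysed here, because no genome of the build of these coordinates was used.

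The first comparison asked whether chromosomes of common ancestry carry events at the same density. Density is given as events per megabase (Mb) of span, the distance from the first to the last event, since chromosome lengths of the build were not used here. Chr12 had 59.8 events per Mb (95% exact Poisson interval 56.8 to 63.0) over a span of 24.2 Mb. Chr10 had 57.7 per Mb (54.6 to 60.8) over 23.4 Mb. Chr19 had 54.7 per Mb (51.8 to 57.7) over 24.6 Mb. The intervals of all 3 overlapped, which is not a test of their differences. All 3 lay below the 66.7 per Mb of the other 16 chromosomes together, whose single values ran from 49.1 on chr09 to 84.2 on chr08. In the order of all 19 chromosomes from the densest, chr12 stood at place 13, chr10 at 15 and chr19 at 17.

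**Figure D1:**
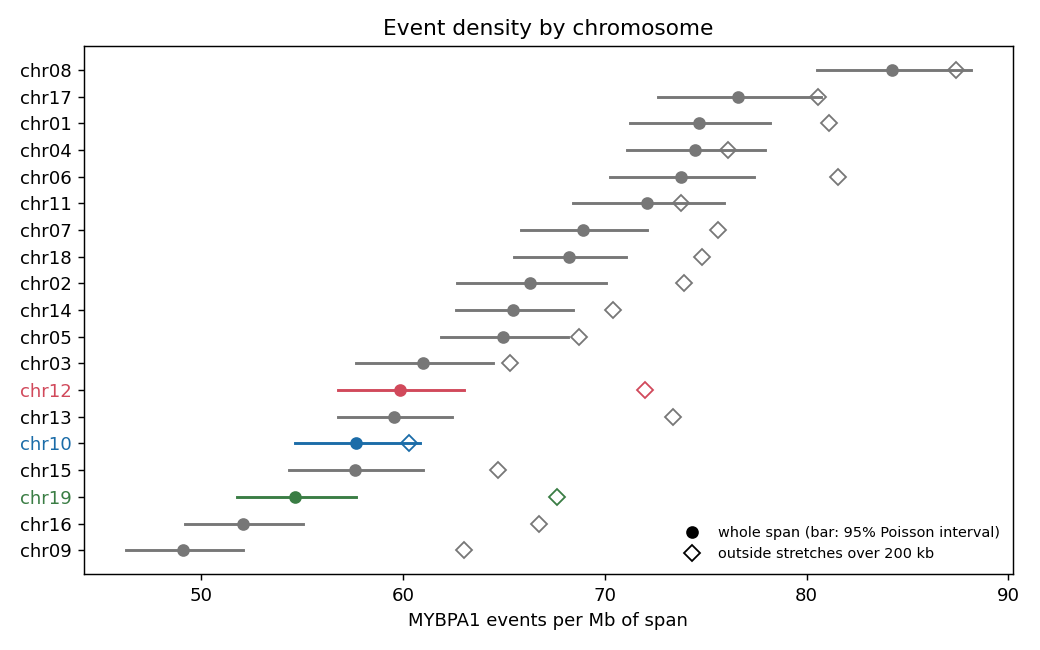
Events per Mb of span for each of the 19 numbered chromosomes (x axis), ordered by density. Filled circles show the whole span with 95% exact Poisson intervals, open diamonds the density outside event-free stretches over 200 kb. Chr10, chr12 and chr19 are coloured, and the open diamond of chr10, at 60.3 per Mb, is the lowest of all.

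Counting intervals treat events as independent, whereas events were unevenly spread along every chromosome. The difference was therefore tested on counts in full windows of 1 Mb with a quasi-Poisson model, which estimates the excess spread (10.9 times that of independent events). The model used 23 windows of chr10, 24 each of chr12 and chr19 and 378 of the other chromosomes. Chr10 (n = 23 windows) had 0.953 times the events per window of chr12 (95% interval 0.744 to 1.22, adjusted p = 0.863) and 1.07 times those of chr19 (0.831 to 1.39, adjusted p = 0.830). Chr12 (n = 24 windows) had 1.13 times those of chr19 (0.877 to 1.44, adjusted p = 0.824). Ratios within these intervals are compatible with the data, and windows this uneven leave the intervals wide. Against the other 16 (n = 378 windows), the ratios were 0.859 for chr10 (0.714 to 1.03, adjusted p = 0.759), 0.901 for chr12 (0.755 to 1.07, adjusted p = 0.759) and 0.80 for chr19 (0.664 to 0.964, p = 0.0192 before and 0.461 after adjustment). None of the 24 tests of density, spacing and signal passed after Benjamini-Hochberg adjustment, and 1 of them, chr19 against the other 16, had an unadjusted p below 0.05. An exact binomial test that takes events as independent did call the lower density against the other 16, with adjusted p of 1.49e-06 for chr10, 0.000416 for chr12 and 6.37e-12 for chr19. That test ignores the excess spread of 10.9 times, so its p-values are too small. The window model, which allows for the spread, did not call the lower density after adjustment.

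The next comparison was of position along the chromosome. Of the events of chr10, 34.0% lay in the middle 33.3% of the span (95% Wilson interval 31.6 to 36.6%). The shares were 22.8% on chr12 (20.7 to 25%) and 20.1% on chr19 (18.0 to 22.3%), and on the other 16 chromosomes they ran from 18.7 to 36.7% with a median of 26.2%. These intervals treat events as independent. In a quasi-Poisson model of 1 Mb windows, chosen after these shares were seen, the ratio of middle to outer windows was 1.05 on chr10 (0.732 to 1.5), 0.586 on chr12 (0.395 to 0.867) and 0.476 on chr19 (0.306 to 0.741), with 8 middle windows on each, and 0.743 on the other 16 (0.680 to 0.812). The ratio of chr10 was 2.20 times that of chr19 (n = 23 and n = 24 windows, 1.25 to 3.89, adjusted p = 0.0402 over the 6 contrasts of this model and 0.201 over all 30 tests). It was 1.79 times that of chr12 (1.05 to 3.05), which did not pass in either case. No chromosome's ratio passed against the other 16. With the span cut into 10 equal sections, chr12 was densest at its start, with 99 events per Mb in section 1 and 103.5 in section 2, and thinned to 27.7 in section 5 and 24 in section 6. Chr19 reached 93.8 in section 3, fell to 25.2 in section 5 and 7.31 in section 6, and returned to 84.9 in section 10. Chr10 also peaked in section 3, at 98.2, but kept 70.9 in section 5 and 41.8 in section 6. Its start was sparser, with 52.1 in section 1 against a range of 51.9 to 106 on the other 16 chromosomes.

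**Figure D2:**
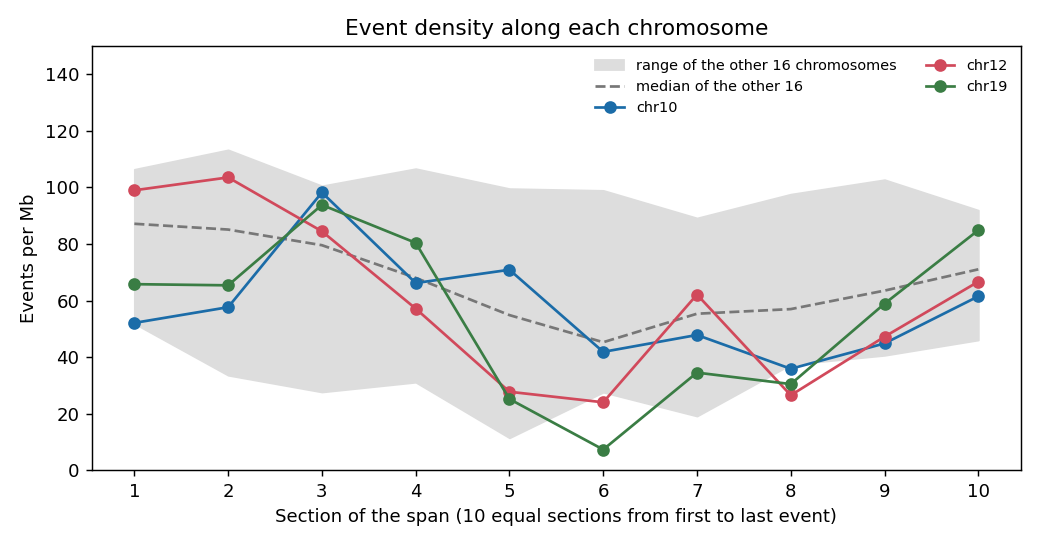
Events per Mb (y axis) in each section of the span (x axis) for chr10, chr12 and chr19, with the range and median of the other 16 numbered chromosomes in grey. Chr12 and chr19 fall below the grey range in section 6, and all 3 chromosomes lie below it in section 8.

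In section 6, chr19 (7.31 per Mb) and chr12 (24) were below the lowest of the other 16 chromosomes, 27.6. In section 8 all 3 were below the lowest of the others, 37.4, with 35.9 on chr10, 30.5 on chr19 and 26.5 on chr12. The sections were singled out after their values were seen, and a section on one chromosome need not correspond to the same section on another. The unevenness is summed up by the ratio of variance to mean over 1 Mb windows, which would be near 1 for independent events. It was 15.6 on chr19 and 15.5 on chr12, the highest values of the 19 chromosomes, and 9.50 on chr10, close to the median of 10.1 over the other 16. The other 16 reached at most 14.7, on chr18.

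The richest window of chr10 ran from 6000001 to 7000000 and held 109 events, and its poorest, from 12000001 to 13000000 and from 17000001 to 18000000, held 27 each. On chr12 the richest window was from 1000001 to 2000000 with 106 events and the poorest from 17000001 to 18000000 with 5. On chr19 they were from 6000001 to 7000000 with 97 events and from 14000001 to 15000000 with 3. The richest windows were thus close in count and the poorest were not. No full window of chr10 held 20 events or fewer, against 3 on chr12 and 5 on chr19. The 5 sparse windows of chr19 were adjacent, from 11000001 to 16000000, and held 46 events together. No other chromosome had more than 2 adjacent windows of 20 events or fewer. The 46 events had a median signal value of 40, and 17 of them (37.0%) reached a −log10 q of 5, q being the adjusted significance given by the caller, compared with 58.6% of the whole list. A neighbour within 1000 bp was found for 12 of the 46 (26.1%, against 28.3% of events on all numbered chromosomes), and the highest signal was 351. No interval was computed for these shares. Sparse sections elsewhere varied, with a median signal of 38.5 in section 7 of chr09 and 50 in section 5 of chr16. Over windows of at least 20 events, the Spearman correlation of count with median signal was 0.519 on chr19. On the other 16 it ran from −0.237 to 0.785, with a median of 0.301.

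Event-free stretches, the distances between neighbouring event centres, were compared next. Stretches over 200 kb numbered 2 on chr10 (95% exact Poisson interval 0.242 to 7.22) and 11 each on chr12 and chr19 (5.49 to 19.7). They took 4.36% of the span of chr10, 16.9% of chr12 and 19.2% of chr19, whereas the other 16 chromosomes had 1 to 14 such stretches covering 2.14 to 22.1%. The intervals of these small counts overlapped, which is not a test of the difference, and no test was run. The difference depended on the length chosen. Over 100 kb, chr10 had 33 stretches (22.7 to 46.3), level with chr14 as the most of any chromosome, and chr12 and chr19 had 29 each (19.4 to 41.6). Over 500 kb the counts were 1, 1 and 3 on chr10, chr12 and chr19. Between 100 and 200 kb chr10 alone had 31, above the 18 of each related chromosome and above the 6 to 27 of the other 16. This band was not among the planned lengths, and no interval was computed for its counts. When stretches were measured between events that reached a −log10 q of 5, those over 200 kb numbered 11 on chr10 and 14 on each of the others.

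**Figure D3:**
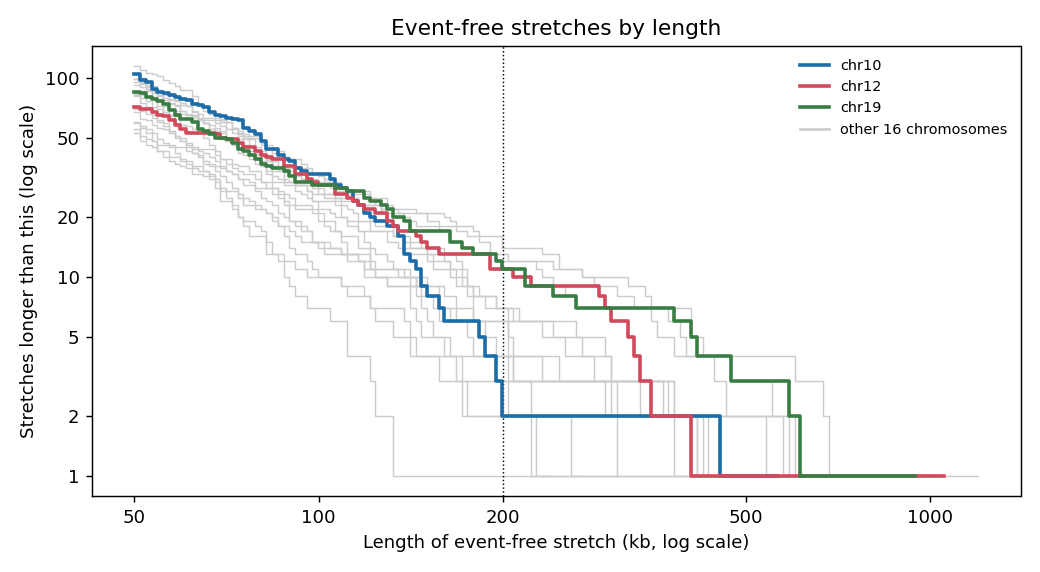
Number of event-free stretches (y axis, log scale) longer than a given length (x axis, kb, log scale) on chr10, chr12, chr19 and, in grey, each of the other 16 numbered chromosomes. The dotted line marks 200 kb, where chr10 has 2 stretches left and chr12 and chr19 have 11 each.

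The longest stretch on chr10 ran from 17886440 to 18456162 (570 kb). The second, from 17428656 to 17880998 (452 kb), lay 5442 bp before it, so that both formed 1 sparse block at 74.1 to 78.5% of the span. The third, from 12128144 to 12324455, was 196 kb long. On chr12 the longest, from 17272511 to 18338794, measured 1066 kb, followed by 400 kb (10356494 to 10756317) and 346 kb (11452279 to 11798312). The event at the start of the last had a signal of 364, so a strong event can border a long empty stretch. On chr19 the longest, from 13700972 to 14661018, measured 960 kb, followed by 601 kb (14707561 to 15308271) and 579 kb (11817106 to 12396457), all within the 5 sparse windows. The 11 stretches over 200 kb of chr19 fell between 40.6 and 78.6% of the span, and those of chr12 between 37.2 and 96.1%.

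Leaving out stretches over 200 kb, density was 72.0 events per Mb on chr12, 67.6 on chr19 and 60.3 on chr10, compared with 73.8 for the other 16 together. The order of chr10 and chr19 was then exchanged, and chr10 became the sparsest of the 19 chromosomes, below the 63.0 of chr09. Such removal raises density by construction, and most where these stretches take the largest share of the span (19.2% on chr19 against 4.36% on chr10). Leaving out stretches over 100 kb gave 74.1 on chr10, 77.6 on chr19 and 81.7 on chr12, with chr10 at place 3 from the lowest. Chr10 thus had the fewest events per Mb of the 3 at both lengths, a comparison made without a test.

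Spacing at short range was compared next. The median distance between neighbouring centres was 7716 bp on chr10, 7625 bp on chr12 and 7399 bp on chr19, within the 6241 to 8270 bp of the other 16. A neighbour within 1000 bp was found for 387 events of chr10 (28.6%, 95% Wilson interval 26.3 to 31.1%), 403 of chr12 (27.9%, 25.6 to 30.3%) and 356 of chr19 (26.4%, 24.2 to 28.9%), against the same 28.3% overall. In a quasi-binomial model over 1 Mb windows the odds ratios among the 3 lay between 1.01 and 1.1, and against the other 16 they were 0.982 for chr10, 0.976 for chr12 and 0.894 for chr19 (n = 24 windows, 0.752 to 1.06, adjusted p = 0.759, the smallest of the 6). Among events that reached a −log10 q of 5, the odds ratio of chr12 over chr19 turned from 1.09 to 0.723 (n = 24 windows each, 0.528 to 0.989, p = 0.0427 before and 0.507 after adjustment) and that of chr10 over chr12 was 1.30 (0.946 to 1.78). Events at most 200 bp apart, which overlap in the list, made up 11, 11.2 and 11.1% of the events of chr10, chr12 and chr19, compared with 10.5% on the other 16 together and 8.83 to 12% on each. Within such pairs the ratio of the stronger to the weaker signal had a median of 1.81 on chr10 (75 pairs), 1.87 on chr12 (82 pairs) and 1.83 on chr19 (75 pairs), compared with 1.69 on the other 16 (1371 pairs).

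Events were also joined where their centres were at most 1000 bp apart. Groups of 3 or more then numbered 22 on chr10, 25 on chr12 and 13 on chr19, where the other 16 chromosomes had 17 to 42. The 13 groups of chr19 held 46 of its events, and the 25 of chr12 held 87. Groups of 5 or more were few. Chr12 had 1 of 6 events between the centres 1243273 and 1245436, with signals of 25.9 to 71.2, and 1 of 5 events from 6554925 to 6557130, with signals of 28.3 to 62.3. Chr10 had 1 of 5 events from 6401596 to 6404240, the strongest at 136. Chr19 had 1 of 5 from 6153084 to 6154680, the strongest at 207. Both groups of chr12 thus consisted of events below the 90th percentile of the list, and the largest group of each chromosome lay in its richest window.

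The signal value is the strength the event caller gave to each event, without a stated scale. Its median was 49.2 on chr10 (95% binomial interval of the median 47.0 to 51.5), 48.7 on chr12 (47.0 to 50.8) and 48.0 on chr19 (46.6 to 51.0). The lower quartile was 35.0 on all 3, and the upper quartiles were 82.0, 75.4 and 78.9 in the same order. On the other 16 chromosomes medians ran from 46.9 to 52.0. A weighted linear model of the mean log2 signal per window gave ratios of geometric means of 1.04 for chr10 over chr12 (n = 23 and n = 24 windows, 0.975 to 1.1, adjusted p = 0.759), 1.02 for chr10 over chr19 (0.961 to 1.09, adjusted p = 0.824) and 0.988 for chr12 over chr19 (0.929 to 1.05, adjusted p = 0.863). Against the other 16 the ratios were 1.01, 0.973 and 0.985 for chr10, chr12 and chr19, and no interval extended beyond 0.932 or 1.05. With windows of at least 5 events weighted equally, the ratio of chr12 to the other 16 was 0.949 (n = 24 windows of chr12, 0.903 to 0.997, p = 0.0372 before and 0.447 after adjustment) and that of chr19 was 0.961 (0.913 to 1.01).

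**Figure D4:**
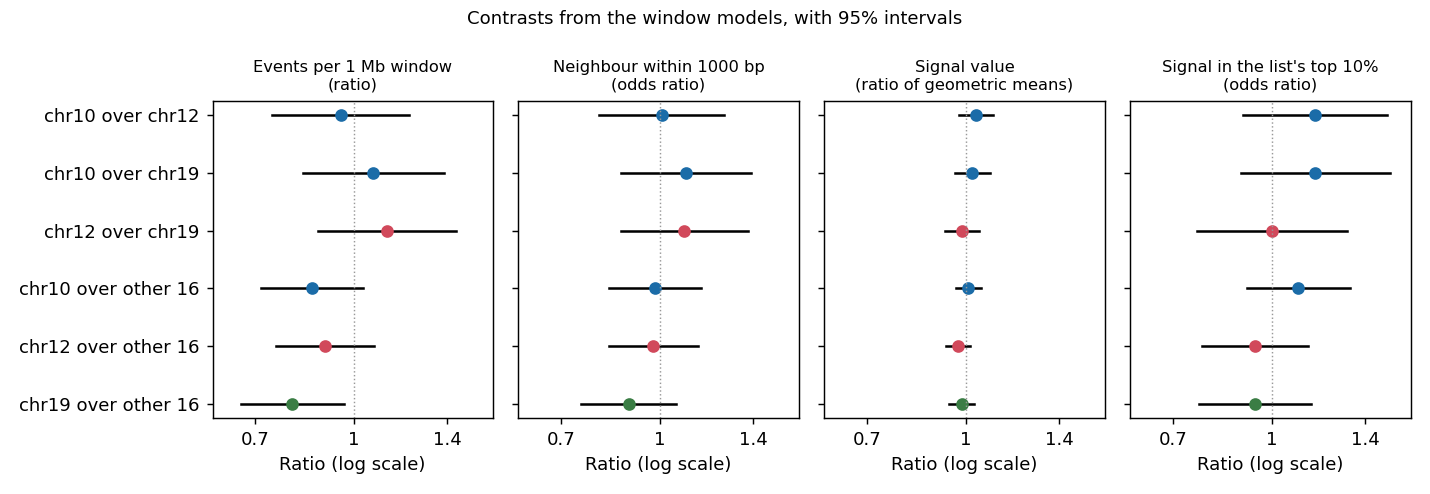
Estimates (points) and 95% intervals (bars) of the 6 contrasts for event density, close neighbours, signal value and the share of strong events, each as a ratio or odds ratio on a log axis. The dotted line marks 1, and the interval of chr19 over the other 16 in density (0.664 to 0.964) is the only one that does not include it, before adjustment.

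Strong events were defined by the 90th percentile of the list, a signal of 135. They numbered 146 on chr10 (10.8%, 95% Wilson interval 9.26 to 12.6%), 135 on chr12 (9.34%, 7.95 to 11%) and 125 on chr19 (9.29%, 7.85 to 11%), against 10% of the whole list. On the other 16 together the share was 9.83%. The odds ratios were 1.17 for chr10 over chr12 (0.902 to 1.52) and 1.17 for chr10 over chr19 (0.895 to 1.53), both with an adjusted p of 0.759. At or above the 99th percentile, a signal of 391, there were 14 events on chr10, 13 on chr12 and 12 on chr19. These were 1.04, 0.90 and 0.892% of their events, against 1% of the list and 0.911% on the other 16 together. The numbers of the strongest events were therefore nearly equal. Their signal was not: they carried 14.1% of the summed signal on chr10, 7.33% on chr12 and 6.32% on chr19, and 4.67 to 12.1% on the other 16.

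On each of the 3 chromosomes, median signal was lower the farther events stood from their nearest neighbour. Events with a neighbour at most 200 bp away had median signals of 63.3 on chr10, 60.2 on chr12 and 61.0 on chr19. Those over 5000 bp from any other had 45.0, 45.5 and 45.0. Between these, events over 200 and up to 1000 bp from another had medians of 53.2, 51.0 and 49.2.

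Chr10 carries the strongest event of the list, from 16304558 to 16304758, with a signal of 4280, which is 87.2 times the list's median. The event ranked 3 in the list, from 16328492 to 16328692 with a signal of 2938, lies 23.9 kb from it. The next on chr10 were at 92902 to 93102 (signal 1273, rank 10) and at 23164452 to 23164652 (1197, rank 13), followed by one at 16173968 to 16174168 (734, rank 59). On chr12 the strongest event, from 12847810 to 12848010, had a signal of 1224 (rank 11). Events of 730 and 722.6 lay on chr12 from 1732054 to 1732254 and from 1717015 to 1717215, and events of 683 and 539.7 from 12603347 to 12603547 and from 2940468 to 2940668. On chr19 the strongest, from 23675349 to 23675549, reached 691.5 (rank 70), and the one from 6370274 to 6370474 reached 683.7. The events from 8495374 to 8495574, from 142123 to 142323 and from 20931508 to 20931708 of chr19 had 503, 501 and 481.6. The top of the range thus fell from chr10 to chr12 to chr19. The p of 4 of these events (the events ranked 1, 3 and 13 on chr10 and 11 on chr12) was too small for the list to write, as for 15 events in all (0.0495%), and none was on chr19.

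If the caller sets the signal of an event against control reads at its place, its p holds a trace of them. A control value was back-calculated for each event as the count that returns the event's p from its signal in a binomial test (one-sided, equal odds). This assumes the form of the test, which the sources used here do not give. Of 2087 events on the 3 chromosomes with a whole-number signal and no neighbour within 1000 bp, 80.8% gave a control value within 0.05 of a whole number, although nothing in the calculation requires it. The median signal was 4.65 times the control on chr10 (quartiles 3.22 and 8.44), 4.52 times on chr12 (3.11 and 7.87) and 4.74 times on chr19 (3.14 and 8.39), and 4.37 to 4.93 times on the other 16. The control values were low, with a median near 11 on each of the 3 chromosomes. Among the strongest events they recurred at few levels, near 4, 7, 11, 14, 18 and 25. The ratio of a typical event to its control is thus coarse, and it was similar in value on the related chromosomes.

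The same ratio was taken in the strongest events. Among events at or above the 99th percentile with a control value of at least 1, the median signal was 50.6 times the control on chr12 (12 events, quartiles 40.6 and 100) and 35.8 times on chr19 (9 events, 26.4 and 45.7), against 12.1 times on chr10 (11 events, 4.90 and 52.2). The medians of the other 16 ran from 23.4 to 63.6, and chr10 lay below them. The value of chr19 leaves out 3 events with a control value below 1, whose ratios would be its highest, so its median is lowered by this limit. That of chr12 leaves out 1 event with a p beyond the range. The value of chr10 leaves out its 3 events with a p beyond the range, and 4 of its 11 events lie within 100 kb of its strongest. Without these 4 the median of the other 7 was 27.9, within the range of the other 16. Control values over 100 were obtained for 7 events of chr10 and for none of chr12 and chr19, whose highest was 49.0 on each. The other 16 chromosomes together had 2. These 7 were the event at 92902 to 93102, with a control value of 105, and 6 events between 16173968 and 16339373.

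Within 100 kb of the strongest event of chr10 lay 10 events, itself included, spread over 127 kb. All 10 had a signal above the list's 90th percentile, from 190 upward with a median of 468, and 6 exceeded the 99th. From the start, there was an event of signal 277 at 16212290 to 16212490 and a pair with centres 85 bp apart, of 595.3 and 411.7, from 16234878 to 16235163. The strongest event followed after 69.6 kb. Then came an event of 524 at 16325978 to 16326178, a group of 3 from 16328019 to 16329044 with signals of 263.4, 2938 and 189.8, and a pair of 264.9 and 705.1 from 16338914 to 16339373. Their p was weak for their signal. The event of 411.7 had a −log10 p of 7.73, lower than each of 136 events on numbered chromosomes whose signal was within 10% of its own (median 104). The event of 524 had 61.1, lower than each of 70 like events (median 133), and that of 189.8 had 9.15, lower than each of 656 (median 41.8). Each of the other 5 with a written p had a −log10 p above that of only 1 like event and below the 5th percentile of its like events. These 5 had signals of 277, 595.3, 263.4, 264.9 and 705.1, with 308, 45, 321, 325 and 34 like events. The event of 264.9, at 21.0, was also above its neighbours of 277 (16.1) and 263.4 (13.3). The control values of the 8 ran from 55.8 to 268 with a median of 117, against a median of 11 on all of chr10, and their signal was 1.54 to 10.7 times the control.

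**Figure D5:**
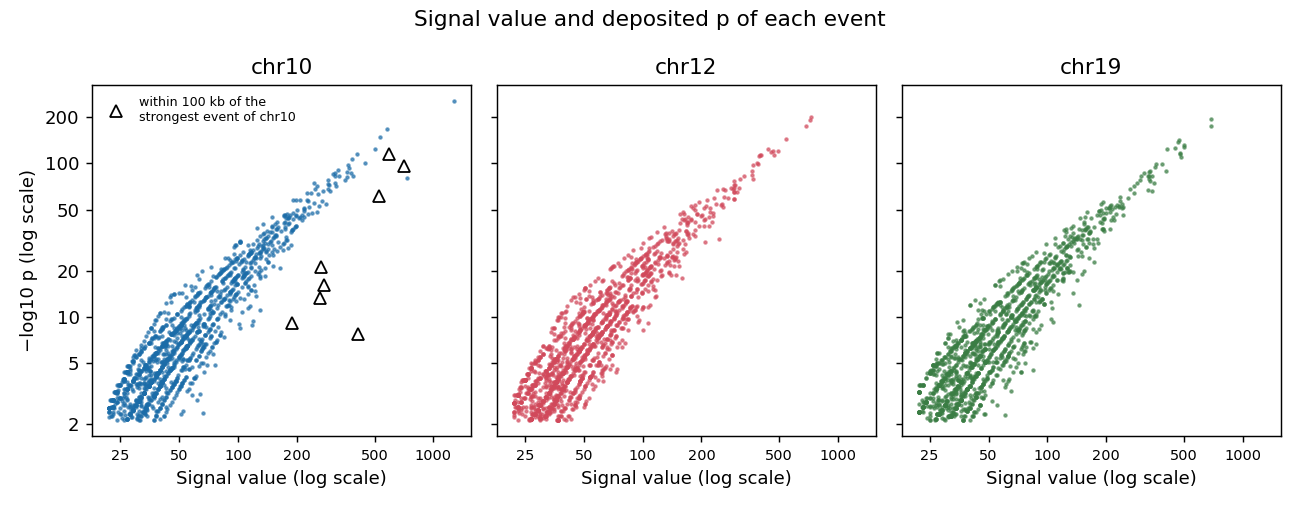
Signal value (x axis, log scale) and deposited −log10 p (y axis, log scale) of each event on chr10, chr12 and chr19, without the 4 events whose p is too small to write. Triangles mark the 8 events with a written p within 100 kb of the strongest event of chr10. Each has a −log10 p below the 5th percentile of events whose signal is within 10% of its own. The chr10 event of signal 734 and −log10 p 80.4, farther from the strongest, is drawn as a dot.

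The surroundings of the strongest events on the related chromosomes were different in level. Within 100 kb of the strongest event of chr12 lay 13 events including it, with a median signal of 57.7, and 12 of them had control values of 6.88 to 21.0. Apart from the strongest itself, 2 were above the 90th percentile, at 262.2 (12936516 to 12936716) and 144 (12886794 to 12886994). Within 100 kb of the strongest event of chr19 lay 18 events with a median signal of 95.1 and control values of 0.910 to 32.0. That event had another of signal 131.5 at 35 bp, 1 of 343 at 2006 bp and 1 of 194 at 3966 bp. The strongest event of chr19 stood 100 times above its control of 6.91, whereas the fifth of chr10, of like signal (734), stood 4.12 times above its control of 178. That chr10 event is one of those with control values over 100 between 16173968 and 16339373. The contrast is thus between single places and not between chromosomes. The control of 6.91 is low, as is the 0.910 of the event at 35 bp, so the ratio of 100 is coarse.

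Without the 10 events around the strongest one, the share of summed signal in the events at or above the 99th percentile was 5.87% on chr10, beside 6.26% on chr12 and 5.75% on chr19 computed in the same way. The ratio of mean signal of chr10 to the other 16 chromosomes then became 0.990 (n = 23 and n = 378 windows, 0.947 to 1.04, adjusted p = 0.890), on the other side of 1, and the odds ratio for strong events became 1.02 (0.845 to 1.24, adjusted p = 0.910). Since these 10 events were picked around the strongest and include 6 of the 14 at or above the 99th percentile, a lower share without them follows from the choice.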

How the data were processed

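The authors made 2 MYBPA1 and 2 pIX-HALO libraries. The submitters' processing notes name Bowtie2 2.0 and fastp 0.21.0, and the list's name gives GEM as the event caller. Not given in the sources used here were its settings and control, the joining of the 2 libraries and the genome build. For each event the authors deposited a signal value, −log10 of p and of q, and a display score that was not used. Decimal commas were read as points. A p beyond the caller's range is written as 999. The middle base of an event was taken as its centre.

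The unit of the tests was the full 1 Mb window (449 on 19 chromosomes; windows next to each other are not independent), with chr10, chr12, chr19 and the other 16 as 4 levels. Density used quasi-Poisson, shares quasi-binomial and log2 signal weighted linear regression (statsmodels 0.14.6, two-sided), with Benjamini-Hochberg adjustment over 24 tests, and a model of middle against outer windows was added after seeing the data. The models were run on simulated windows drawn independently of each other, which does not cover dependence between adjacent windows. Regions named are, per chromosome, the 5 strongest events, 3 longest stretches, richest and poorest windows, groups of 5 or more events, events whose p is beyond the range, and events within 100 kb of the strongest. Others were named after their values were seen. Members, lists and tests were chosen with earlier results of these data known. Intervals on counts and shares cover counting error only, and library depth is unknown. Alternatives were other window sizes, event lists, distances and thresholds. Other software was scipy 1.17.1, pandas 2.3.3, matplotlib 3.10.9 and numpy 2.4.6 under Python 3.11.15.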

Additional observations from a re-analysis of the deposited data

How the results depend on the processing

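Of 156 recomputed contrasts, 133 kept their direction and their side of the threshold, 20 changed sign without passing it, and 3 passed it. Those 3 are the exact binomial tests of density against the other 16 chromosomes, with ratios of 0.865 for chr10, 0.897 for chr12 and 0.820 for chr19. The construction of that test, which takes events as independent, narrows its intervals. In the window model of density, the interval of chr19 over the others also lay below 1 with windows of 500 kb (0.702 to 0.945). It did so too at −log10 q of at least 5 (0.670 to 0.996) and in the 50% of highest signal (0.624 to 0.963), but reached 1.02 with windows of 2 Mb. That of chr10 lay below 1 with windows of 500 kb (0.738 to 0.995). None of these passed after adjustment, and all drew on the same list. For close neighbours, events with −log10 q of at least 5 gave odds ratios of 0.938 for chr10 over chr19, 0.723 for chr12 over chr19, 1.07 for chr10 over the others and 1.14 for chr19 over the others. The 50% of events with the highest signal gave 0.859 for chr12 over chr19 and 1.01 for chr10 over the others. A distance of 500 bp gave 0.925 for chr10 over chr12 and 1.01 for chr12 over the others, and 5000 bp gave 0.970, 0.963 and 0.993 for chr10 over chr12, chr10 over chr19 and chr12 over chr19. For signal, chr12 over chr19 became 1.01 at −log10 q of at least 5 and 1.01 with window medians, and chr10 over the others became 0.994 with window medians and 0.990 without the events near its strongest, a choice made after seeing the data. For strong events, chr12 over chr19 became 0.987 without events within 200 bp of a stronger one, 0.931 for the top 5% and 0.962 for the top 1%, where chr10 over chr19 was 0.972 and chr19 over the others 1.03. The cause was not tested, and in all of these changes of sign the intervals of the main values already included 1. Event-free stretches over 100 kb numbered 33, 29 and 29 and over 500 kb 1, 1 and 3 on chr10, chr12 and chr19, and 11 over 200 kb were found on chr10 at −log10 q of at least 5. At −log10 q of at least 5, shares in the middle of the span moved by less than their counting intervals.

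No paired analysis was possible because the deposited values are not split by library, and for the same reason leaving out a replicate was not run. Library depths are unknown, which limits what can be said of sites too weak to enter the list.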
